A study of Mus musculus with 5 samples.

Results

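The genes described here are the cadherins and the nonclustered protocadherins of the mouse, taken as every gene whose symbol is Cdh or Pcdh followed by a number, with an optional x for Pcdh11x. The symbols matched 35 genes of the 27919 rows with a gene symbol, of which 23 were cadherins and 12 were protocadherins. They were measured by RNA-seq of polyadenylated RNA from the untreated forebrain of C57BL/6 mice at E12.5, that is, in mid-gestation. The 2 groups were wild type (libraries WT1 and WT2, drawn as wild type 1 and 2) and EedcKO (3 libraries), which the submitters describe as littermates. The product of Eed is part of the core of Polycomb repressive complex 2, which methylates histone H3 and keeps developmental genes silent. The sources used here give neither the driver nor the deleted part of Eed, nor whether each library came from 1 embryo, so the p-values measure a spread between libraries that may be technical.

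Cadherins are calcium-dependent adhesion proteins of the cell surface. Classical cadherins bind the same or a related cadherin on the next cell and hold the actin cytoskeleton through catenins, and in the early forebrain they join the progenitors of the ventricular zone and mark off regional compartments. Type I members such as N-cadherin give strong adhesion, whereas type II members are expressed in restricted combinations by groups of neurons. Nonclustered protocadherins adhere more weakly and carry signalling motifs in their tails. By their textbook classes, the 35 genes held 5 type I and 13 type II classical cadherins, 4 delta-1 and 5 delta-2 protocadherins, and 8 other genes. The symbol rule is thus wider than the classical cadherins: Cdh13 has a lipid anchor in place of a tail, and Cdh23 and Pcdh15 form the tip link of hair cells.

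Counts per library summed to between 4820630 and 5026381, of which the 35 genes took 7163 to 9006, or 0.152% to 0.183% of the counts with a gene symbol. The targeted gene Eed had 404 counts in WT1 and 238 in the library labelled WT2, against 251, 233 and 247 in EedcKO 1, 2 and 3. The count thus went against the label of 1 library, although it covers the whole gene and not the deleted part alone. Directions below that use both wild-type libraries rest in part on this library, and the wild-type libraries are therefore also shown apart. By Xist and Y-linked counts both wild-type libraries and EedcKO 1 were female (Xist 3127 to 5239 counts), and EedcKO 2 and 3 were male (Xist 4 counts and 1 count). Of 6 forebrain markers, each with at least 166 counts in every library, Otx1 and Pax6 were higher in EedcKO by the test described below, and Six3, Lhx2, Emx1 and Emx2 did not pass (log2 fold changes -0.97, 0.39, 0.98 and 0.09). Markers of the cortical hem and choroid plexus summed to 183 CPM (counts scaled per library size) in WT1, 575 in the library labelled WT2 and 52.1 to 245 in EedcKO, and those of meninges and mesenchyme to 432, 682 and 485 to 966, with 0 of 9 and 0 of 10 tested past the threshold.

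Per unit of gene length, the most abundant members were Cdh2, Cdh24 and Cdh4. Cdh2 encodes N-cadherin, the main adherens junction cadherin of the neuroepithelium, and had 161 and 135 TPM (transcript abundance scaled by gene length) in WT1 and the library labelled WT2, and 156, 155 and 153 TPM in EedcKO 1, 2 and 3. Cdh24, a type II cadherin, averaged 134 TPM over the 5 libraries, and Cdh4, the retinal cadherin, 104 TPM. By the mean over all 5 libraries the protocadherins Pcdh19, Pcdh18 and Pcdh8 followed with 73.4, 67.0 and 65.1 TPM. In the wild-type libraries Pcdh8 was the highest of the protocadherins (89.1 and 69.9 TPM), and in WT1 Pcdh1 (75.2 TPM) and Cdh22 (67.8 TPM) stood above Pcdh18 (55.3 TPM). Together Cdh2, Cdh24, Cdh4, Pcdh19, Pcdh18 and Pcdh8 made up 53.0% to 57.3% of the summed TPM of the family in each library. That sum was highest in WT1 (1233 TPM) and lowest in the library labelled WT2 (983 TPM), with the 3 EedcKO libraries between them at 1036 to 1075 TPM. Cdh9, Cdh16, Cdh17, Cdh19 and Cdh26 had too few counts to be tested, and the other 30 members are shown in the plot of TPM by gene.

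**Figure D1:**
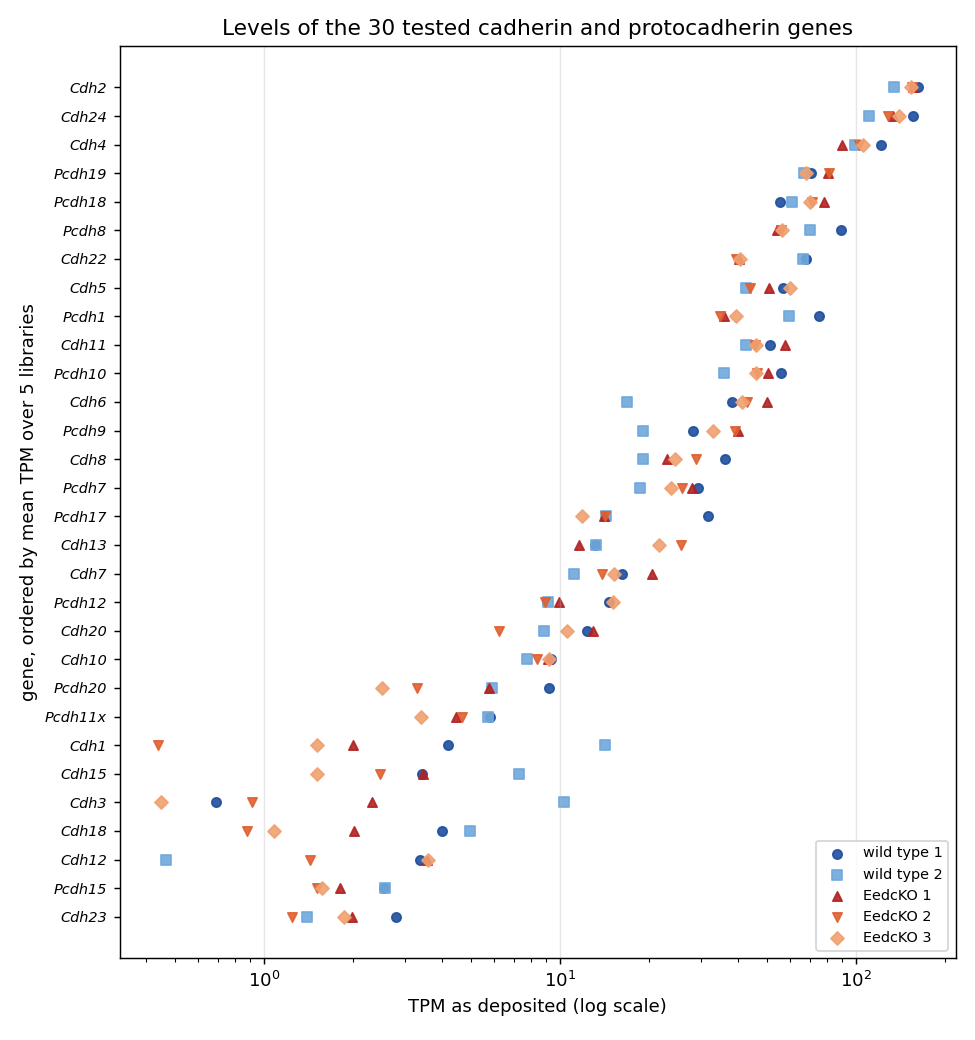
Deposited TPM (log axis) of the 30 tested genes in each of the 5 libraries, ordered by their mean. Cdh2, Cdh24 and Cdh4 stand highest, and the low genes Cdh1, Cdh3 and Cdh15 have their highest value in the library labelled WT2.

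Of the 30 tested members, 2 fell in EedcKO and none rose: the type II cadherin Cdh22 and the delta-1 protocadherin Pcdh1. These 2 were 6.67% of the tested members, beside 3.2% of all 13989 genes tested (2.17% lower and 1.04% higher). The test was edgeR's quasi-likelihood test with Benjamini-Hochberg adjustment over all genes tested and a threshold of 0.05. An unadjusted p under 0.05 was reached by 10 of the 30, or 33.3%, beside 17.2% of all genes tested. The 10 included the low-count genes Cdh1 and Cdh18. This share is a description, since low-count members pass the filter on counts more readily when 1 group is high. The median log2 fold change of the tested members, as EedcKO over wild type, was -0.09, against 0.0074 for all genes tested, with 17 members below 0 and 13 above.

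Cdh22 encodes a cadherin first known from pituitary and brain (chromosome 2, 165111507 to 165234853, minus strand, mm10). It had 249 and 250 counts in WT1 and the library labelled WT2, and 146, 146 and 152 in EedcKO 1, 2 and 3. As CPM these were 52.5, 50.8, 30.5, 30.2 and 31.2. Both wild-type libraries stood well above all 3 EedcKO libraries, and within each group the values nearly coincided. Its wild-type mean of 51.7 ± 1.18 CPM (SD, n = 2) fell to 30.6 ± 0.493 CPM (SD, n = 3), a log2 fold change of -0.75 (edgeR adjusted p = 0.0165, SE 0.11), or 1.69-fold. The ratio of the library labelled WT2 to WT1 was 0.968, with a 95% counting interval of 0.809 to 1.16. Against WT1 alone the log2 fold change was -0.77 (edgeR adjusted p = 0.0155) and against the library labelled WT2 alone -0.75 (edgeR adjusted p = 0.0192).

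Pcdh1 encodes a delta-1 protocadherin also known from airway epithelium (chromosome 18, 38185914 to 38212053, minus strand, mm10). Its counts were 656 in WT1 and 530 in the library labelled WT2, and 308, 305 and 352 in EedcKO 1, 2 and 3. The same values were 138, 108, 64.3, 63.1 and 72.2 CPM. The wild-type libraries differed from each other, but the lower of them still stood at 1.49 times the highest EedcKO library. From a wild-type mean of 123 ± 21.6 CPM (SD, n = 2) it fell to 66.5 ± 4.92 CPM (SD, n = 3), a log2 fold change of -0.89 (edgeR adjusted p = 0.0166, SE 0.13). It was -1.05 against WT1 alone (edgeR adjusted p = 0.00235) and -0.71 against the library labelled WT2 alone (edgeR adjusted p = 0.0140).

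The calls of Cdh22 and Pcdh1 did not hold without EedcKO 2 (edgeR adjusted p = 0.0827 and 0.0780) or without EedcKO 3 (edgeR adjusted p = 0.107 for both). Nor did they hold with embryo sex as a covariate (edgeR adjusted p = 0.217 for both), a fit in which EedcKO 1 alone is compared with the wild type. In these fits their log2 fold changes lay between -0.74 and -0.95. Of all genes, 84 passed without EedcKO 2, 0 without EedcKO 3 and 0 with the covariate, against 448 with all libraries and no covariate. On log2(TPM + 1) Pcdh1 had a log2 fold change of -0.85 (limma adjusted p = 0.0501) and Cdh22 one of -0.73 (limma adjusted p = 0.0332). Lists of regional markers also differed between the groups, in both directions. The summed level of 13 ventral telencephalon markers was 2244 CPM in WT1, 1715 in the library labelled WT2 and 872 to 1320.02 in EedcKO, with 4 of the 13 past the threshold as lower. The 10 diencephalon markers summed to 401, 389 and 163 to 216 CPM, with 3 of 8 tested lower, and 9 markers of the cortical excitatory lineage to 793, 833 and 1363 to 1752 CPM, with 8 of 9 higher. None of these markers was at 0 in every library. Their part in the result was not tested, and in bulk tissue fewer cells of a type and less RNA per cell cannot be told apart.

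**Figure D2:**
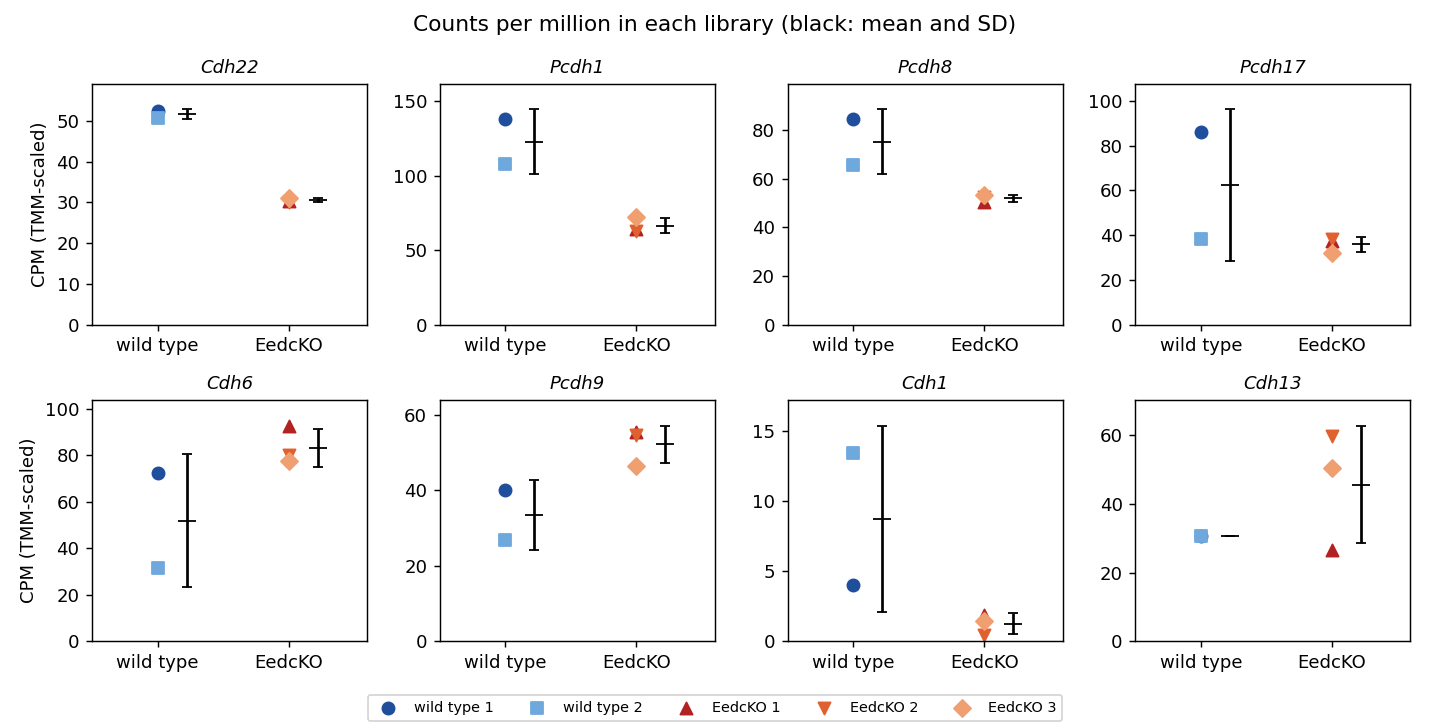
CPM of 8 members in each library, with the group mean and SD in black (wild type, n = 2; EedcKO, n = 3). Cdh22, Pcdh1 and Pcdh8 lie lower in all EedcKO libraries, Pcdh17 and Cdh6 separate the wild-type libraries from each other, and Cdh13 is high in EedcKO 2 and 3 alone.

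Sequences before the transcription starts of 4 members are printed as examples, because promoters rich in CG dinucleotides are where Polycomb complexes are known to bind. They leave out the low end of this family, whose starts held 0 to 30 CG in the 250 bases before them. Cdh22 was the called gene with an entry in the RefSeq promoter table (GRCm38.p6, the assembly of mm10), Pcdh17 and Pcdh8 were lower in EedcKO than in WT1, and Cdh6, with 6 CG, stood at the median of all starts in the table. Each line gives the 250 bases before the RefSeq transcription start, read 5′ to 3′ on the gene's strand, with each CG in capitals. For Cdh22 it gives the first 134 of them, since the other 116 lie inside the gene as GENCODE annotates it.
Cdh22: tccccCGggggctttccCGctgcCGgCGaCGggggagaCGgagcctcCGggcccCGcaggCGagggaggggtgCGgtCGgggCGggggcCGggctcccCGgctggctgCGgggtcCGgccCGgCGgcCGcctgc
Pcdh17: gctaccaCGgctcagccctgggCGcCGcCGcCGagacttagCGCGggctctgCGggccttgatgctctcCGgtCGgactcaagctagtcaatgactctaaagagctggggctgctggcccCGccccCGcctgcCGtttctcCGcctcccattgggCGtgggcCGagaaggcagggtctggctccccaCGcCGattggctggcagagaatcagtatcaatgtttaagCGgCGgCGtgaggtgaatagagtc
Pcdh8: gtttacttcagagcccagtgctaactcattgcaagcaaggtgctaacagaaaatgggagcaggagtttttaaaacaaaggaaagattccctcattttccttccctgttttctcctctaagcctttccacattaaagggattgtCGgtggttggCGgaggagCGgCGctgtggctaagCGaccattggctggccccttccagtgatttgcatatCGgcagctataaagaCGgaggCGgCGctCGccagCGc
Cdh6: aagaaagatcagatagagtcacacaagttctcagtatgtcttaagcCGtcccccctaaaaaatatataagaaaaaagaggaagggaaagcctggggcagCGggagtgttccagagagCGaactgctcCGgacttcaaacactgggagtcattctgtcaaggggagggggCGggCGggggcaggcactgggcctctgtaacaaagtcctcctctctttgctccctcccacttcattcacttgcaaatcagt
These lie at chr2:165234854-165234987 (minus strand), chr14:84443313-84443562 (plus), chr14:79771313-79771562 (minus) and chr15:13173676-13173925 (minus). They held 19, 21, 11 and 6 CG, the same on both strands.

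The table matched 22 of the 35 members with 25 transcription starts. Cdh1, Cdh2, Cdh3, Cdh4, Cdh5, Cdh11, Cdh13, Cdh16, Cdh17, Cdh19, Pcdh1, Pcdh11x and Pcdh12 did not match. The median was 10 CG over the member starts and 6 over all 32851 starts, of which 92.1% held at least 1. Of the 25 member starts, 16 had more than the median of all starts. RefSeq starts can lie inside a gene: 12 of the 25 stretches had no base inside the GENCODE gene, and these had a median of 13.5 CG, with 8 above the median of all starts. Over its whole 250 bases Cdh22 had 30, the most of the matched members and above 94.1% of all starts. High counts were also found in members with little difference between the groups: Cdh24, with a log2 fold change of -0.0046, had 22 CG, and Pcdh10, with 0.04, had 22 as well. Pcdh20, with a log2 fold change of -0.98 that did not pass the test, had 3. The bases after the start were found in a GENCODE transcript of the gene for 22 of the 25 member starts, but not for Pcdh20. Its stretch may therefore not lie before the start in use. Whether CG counts go with the fold changes was not tested.

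Among type I cadherins, none of 5 tested genes passed. The abundant members had groups that overlapped: Cdh2 averaged 248 ± 33.6 CPM in wild type and 258 ± 0.484 CPM in EedcKO, and Cdh4 166 ± 24.9 and 149 ± 13.5 CPM (SD, n = 2 and n = 3). Cdh1 encodes E-cadherin of epithelia (chromosome 8, 106603351 to 106670246, mm10). It had 19 counts in WT1, 66 in the library labelled WT2, and 9, 2 and 7 in EedcKO 1, 2 and 3. Its log2 fold change was -2.79 (edgeR adjusted p = 0.0718, SE 0.66), and the groups did not overlap. Against WT1 alone it was -1.66 (edgeR adjusted p = 0.215) and against the library labelled WT2 alone -3.42 (edgeR adjusted p = 0.00855).

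Cdh3, placental cadherin, lies beside Cdh1 on chromosome 8 (106510891 to 106557297). It had 3 counts in WT1, 46 in the library labelled WT2, and 10, 4 and 2 in EedcKO 1, 2 and 3. The library labelled WT2 alone was high, and WT1 lay within the EedcKO range. The log2 fold change was -2.16 (edgeR adjusted p = 0.340), and 0.79 against WT1 alone (edgeR adjusted p = 0.783). Cdh15, the muscle cadherin, had 11 and 24 counts in WT1 and the library labelled WT2 and 11, 8 and 5 in EedcKO, with the same library highest.

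Markers of other tissues stood high in that library too. The 12 listed markers of surface and other epithelium summed to 294 CPM in the library labelled WT2, 23.8 in WT1 and 25.9 to 39.7 in EedcKO. None of the 12 was at 0 in every library, and none of the 6 tested passed. Krt5, a keratin of basal epithelium, had 428 counts there, 0 in WT1 and 0 to 20 in EedcKO. The 10 skeletal muscle markers summed to 59.8 CPM in the library labelled WT2, 5.27 in WT1 and 3.93 to 9.60 in EedcKO. Of these, 2 were tested, neither passed, and none was at 0 in every library. The part of these tissues in the values of Cdh1, Cdh3 and Cdh15 was not tested.

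Of the type II cadherins, 11 of 13 had enough counts to be tested, Cdh22 fell and none rose. Cdh6, which marks the lateral ganglionic eminence early in development (chromosome 15, 13028701 to 13173675, mm10), had 342 counts in WT1, 155 in the library labelled WT2, and 443, 386 and 377 in EedcKO 1, 2 and 3. The library labelled WT2 stood far below the rest, and WT1 lay just below EedcKO. The log2 fold change was 0.69 (edgeR adjusted p = 0.323, SE 0.31), which was 0.21 against WT1 alone (edgeR adjusted p = 0.459) and 1.38 against the library labelled WT2 alone (edgeR adjusted p = 0.00422). Cdh8 had its wild-type libraries on opposite sides of EedcKO, with 58.6 CPM in WT1, 30.5 in the library labelled WT2, and 36.5, 46.1 and 39.6 in EedcKO 1, 2 and 3. Its log2 fold change was -0.13 (edgeR adjusted p = 0.869).

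Cdh18 was lower in each EedcKO library, with 18 and 23 wild-type counts against 9, 4 and 5. Its log2 fold change of -1.75 (SE 0.46) missed the threshold (edgeR adjusted p = 0.0916). Cdh12 had 21 counts in WT1, 3 in the library labelled WT2, and 22, 9 and 23 in EedcKO, so it was low in 1 wild-type library and overlapped otherwise. Cdh9, which was not tested, had 18 and 9 wild-type counts and 3, 6 and 1 in EedcKO. Cdh19, a marker of the Schwann lineage that was not tested either, had 5 and 3 against 1, 0 and 1. The 7 neural crest and Schwann markers summed to 75.3 and 59.0 CPM in the wild-type libraries and 33.0 to 35.1 in EedcKO, and of the 4 tested Sox10 was lower. Their part in the Cdh19 counts was not tested.

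None of the other type II cadherins passed. Log2 fold changes were 0.26 for Cdh7, 0.07 for Cdh11, 0.05 for Cdh10, 0.04 for Cdh5, -0.0046 for Cdh24 and -0.10 for Cdh20, with edgeR adjusted p between 0.636 and 0.992. Cdh5, the cadherin of endothelium, had 237, 182, 210, 184 and 256 counts in WT1, the library labelled WT2 and EedcKO 1, 2 and 3. The 10 endothelial markers had the same order of libraries, with 307, 231, 277, 243 and 331 CPM, and none of the 10 passed. Pcdh12, a protocadherin of endothelium, had 88, 56, 59, 54 and 93 counts, again highest in EedcKO 3 and WT1.

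Of the 5 cadherins outside the classical types, Cdh13 and Cdh23 were tested and neither passed. Cdh13, T-cadherin (chromosome 8, 118283733 to 119324921, mm10), had 30.8 and 30.7 CPM in the wild-type libraries and 26.7, 59.8 and 50.4 CPM in EedcKO 1, 2 and 3. The 3 female libraries were alike and low, and the 2 male libraries, both EedcKO, were high. The log2 fold change was 0.57 (edgeR adjusted p = 0.419, SE 0.31). With embryo sex as a covariate, a fit in which EedcKO 1 alone is compared with the wild type, it was -0.20 (edgeR adjusted p = 0.737). No wild-type library was male, so sex and genotype cannot be told apart in EedcKO 2 and 3. Cdh23 had 47, 24, 33, 21 and 32 counts. Cdh16, a kidney cadherin, had 0 counts in all 5 libraries, which by a limit of 3 counts allows up to 0.610 to 0.632 CPM in each. Cdh17 and Cdh26 had at most 4 counts and 1 count.

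**Figure D3:**
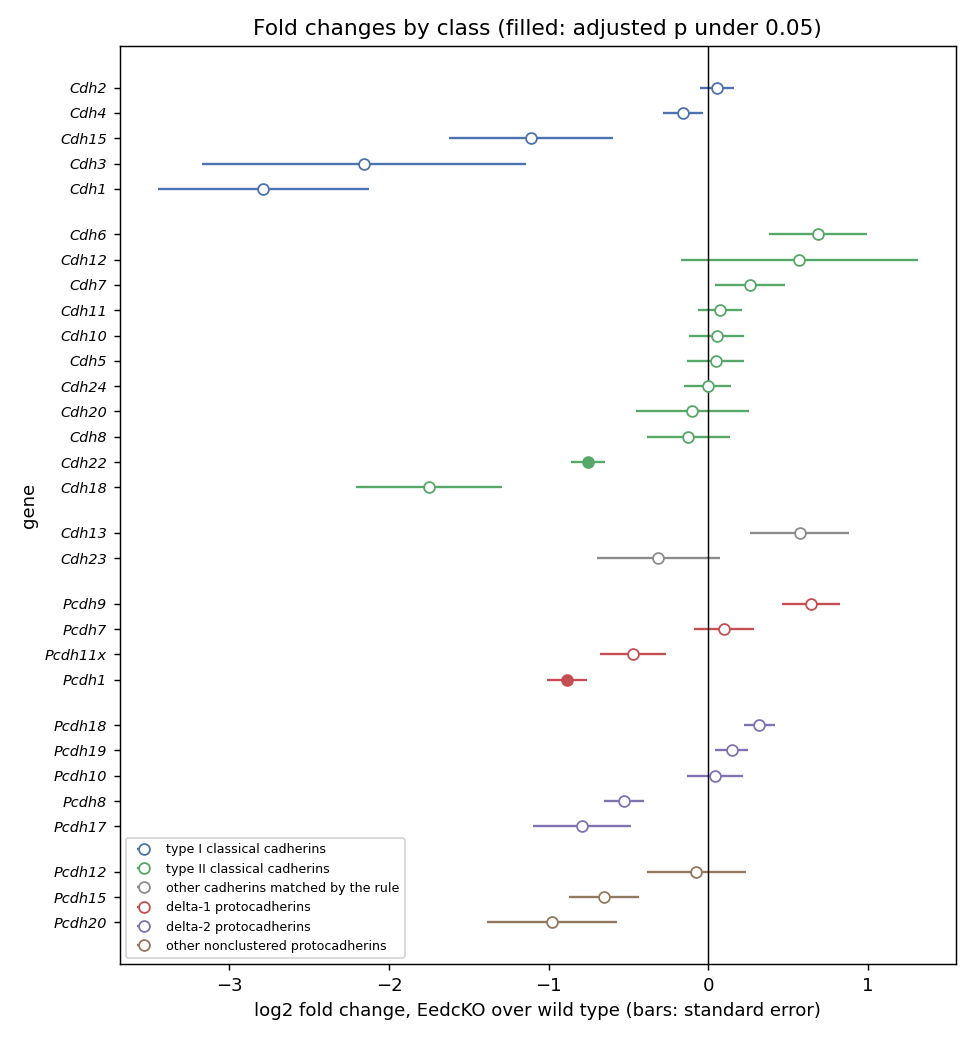
Log2 fold change of EedcKO over wild type with its standard error for the 30 tested members, grouped by class, with filled symbols for edgeR adjusted p under 0.05. Cdh22 (-0.75) and Pcdh1 (-0.89) are filled, and the widest bars belong to the low-count genes Cdh1, Cdh3 and Cdh12.

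All 4 delta-1 protocadherins were tested, and Pcdh1 alone passed. Pcdh9 (chromosome 14, 93013410 to 93890679, mm10) had 40.1 CPM in WT1, 26.8 in the library labelled WT2, and 55.3, 54.6 and 46.5 in EedcKO 1, 2 and 3. All EedcKO libraries lay above both wild-type libraries, with a log2 fold change of 0.64 (edgeR adjusted p = 0.112, SE 0.18). It was 0.39 against WT1 alone (edgeR adjusted p = 0.207) and 0.94 against the library labelled WT2 alone (edgeR adjusted p = 0.0170). Pcdh11x, on the X chromosome, had 16.9 and 16.5 CPM in the wild-type libraries and 12.7, 13.4 and 9.84 in EedcKO (log2 fold change -0.47, edgeR adjusted p = 0.300). Pcdh7 was at 0.10 (edgeR adjusted p = 0.855). An RNA on the opposite strand shares 21.1% of its exonic bases, and without known use of strand their reads cannot be told apart.

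None of the 5 delta-2 protocadherins passed. Pcdh8, an activity-regulated protocadherin (chromosome 14, 79766775 to 79771312, mm10), had 84.5 CPM in WT1, 65.7 in the library labelled WT2, and 50.3, 52.5 and 53.1 in EedcKO 1, 2 and 3. The groups did not overlap, and the log2 fold change was -0.53 (edgeR adjusted p = 0.0696, SE 0.12). It was -0.69 against WT1 alone (edgeR adjusted p = 0.0114) and -0.35 against the library labelled WT2 alone (edgeR adjusted p = 0.130). An antisense RNA, Gm9748, shares 9.61% of its exonic bases.

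Pcdh17, which acts at synapses of corticobasal circuits (chromosome 14, 84443563 to 84539002, mm10), had 409 counts in WT1, 189 in the library labelled WT2, and 180, 184 and 157 in EedcKO 1, 2 and 3. WT1 stood apart, and the library labelled WT2 lay at the upper edge of EedcKO. With all 5 libraries the log2 fold change was -0.79 (edgeR adjusted p = 0.253, SE 0.31). Against WT1 alone it was -1.255 (edgeR adjusted p = 0.00232) and against the library labelled WT2 alone -0.11 (edgeR adjusted p = 0.732).

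Pcdh18 lay higher in every EedcKO library (85.6, 78.8 and 78.1 CPM) than in WT1 (62.0) or the library labelled WT2 (67.7), with a log2 fold change of 0.32 (edgeR adjusted p = 0.139, SE 0.10). Pcdh10 had 186 CPM in WT1, 118 in the library labelled WT2 and 152 to 164 in EedcKO, so the wild-type libraries lay on either side of EedcKO. Pcdh19, the X-linked gene of an epilepsy syndrome, had 154 and 145 CPM in the wild-type libraries and 173, 175 and 148 in EedcKO (log2 fold change 0.15, edgeR adjusted p = 0.547).

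Of the remaining protocadherins, the tip-link gene Pcdh15 had 12.6 and 12.6 CPM in the wild-type libraries and 8.77, 7.45 and 7.79 in EedcKO (log2 fold change -0.66, edgeR adjusted p = 0.172). Pcdh20 had 10.5 and 6.71 CPM against 6.47, 3.72 and 2.87 (log2 fold change -0.98, edgeR adjusted p = 0.273). Both lay lower in every EedcKO library than in either wild-type library, and neither passed.

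Counting all tested members, the groups did not overlap in 13 of 30 (43.3%), beside 33.8% of all genes tested. EedcKO lay below both wild-type libraries in 10 members (33.3%, beside 17.4%) and above both in 3 (10%, beside 16.4%). The 10 were Cdh1, Cdh15, Cdh18, Cdh22, Pcdh1, Pcdh8, Pcdh11x, Pcdh15, Pcdh17 and Pcdh20, and the 3 were Cdh6, Pcdh9 and Pcdh18. These shares are given as a description, since low-count members pass the filter on counts more readily when 1 group is high. Some gaps were narrow. In Pcdh17, Cdh15 and Pcdh20 the lower wild-type library stood at 1.01, 1.01 and 1.04 times the highest EedcKO library. In Cdh6 the lowest EedcKO library stood at 1.07 times the higher wild-type library.

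The calls depended on which wild-type library was used. Against WT1 alone, 4 of 31 tested members fell and none rose (Cdh22, Pcdh1, Pcdh8 and Pcdh17), beside 6.2% of all 14232 genes tested in that fit (4.12% lower and 2.07% higher). Against the library labelled WT2 alone, 4 of 30 fell (Cdh1, Cdh3, Cdh22 and Pcdh1) and 2 rose (Cdh6 and Pcdh9), beside 7.02% of 14409 genes (4.02% lower and 3.01% higher). These fits share the EedcKO libraries, and each assumes that the lone wild-type library varies as EedcKO does. Cdh22 and Pcdh1 passed in both.

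The library labelled WT2 was below WT1, beyond 95% counting error, in 17 of the 30 tested members (56.7%) and above it in 2, Cdh1 and Cdh3. Over all genes tested the shares were 22.5% below and 13.9% above. The ratio to WT1 was 0.437 for Cdh6 (0.359 to 0.530), 0.446 for Pcdh17 (0.373 to 0.531) and 0.520 for Cdh8 (0.424 to 0.637), and 3.35 for Cdh1 (1.99 to 5.91). Cdh22, Pcdh11x, Pcdh15 and Cdh13 had ratios between 0.968 and 0.997. As 1 library each, these ratios carry no replicate error.

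**Figure D4:**
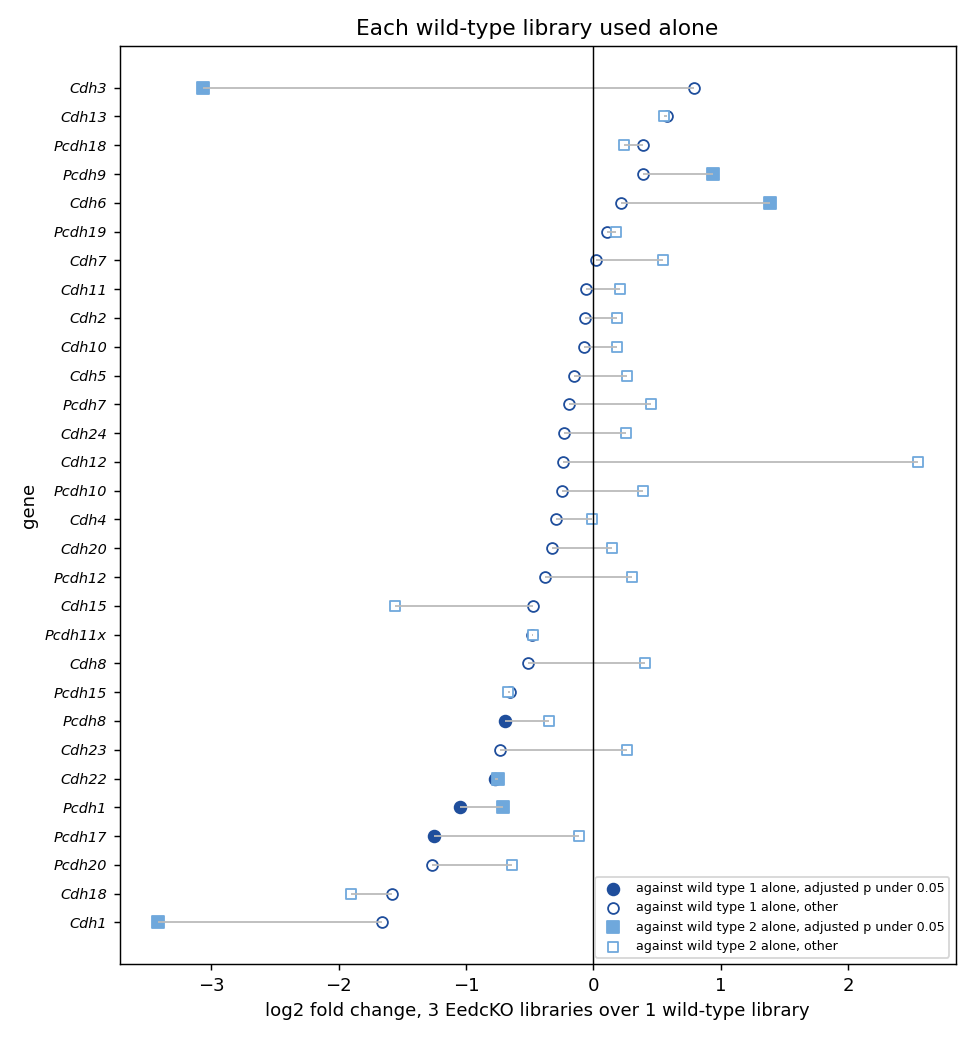
Log2 fold change of the 3 EedcKO libraries over WT1 alone (circles) and over the library labelled WT2 alone (squares) for 30 members, filled where edgeR adjusted p is under 0.05. Cdh22 has nearly the same value in both, while Cdh3, Cdh6 and Pcdh17 move with the wild-type library used.

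Of 42 tested genes on 5 lists of genes that work with cadherins, 2 passed (4.76%), beside 3.2% of all genes tested. Of the catenins and vinculin, which link cadherins to actin, none of 9 tested passed. Those with the smallest p were Jup, plakoglobin (log2 fold change -0.70, edgeR adjusted p = 0.0716), and Ctnna2, the neuronal alpha-catenin (-0.31, edgeR adjusted p = 0.200). Of 13 tested giant and other cadherin superfamily genes, 1 rose and 1 fell. Celsr1, a planar polarity cadherin, had 164 CPM in WT1, 202 in the library labelled WT2, and 310.3, 421 and 468 in EedcKO 1, 2 and 3. It rose with a log2 fold change of 1.13 (edgeR adjusted p = 0.0276, SE 0.19), and the call was lost without WT1, without EedcKO 2 and without EedcKO 3 (edgeR adjusted p = 0.0646, 0.0974 and 0.142). Clstn3, a synaptic calsyntenin, had 104 and 105 CPM in the wild-type libraries and 57.0, 64.8 and 71.1 in EedcKO. It fell with a log2 fold change of -0.70 (edgeR adjusted p = 0.0220, SE 0.11), and was not called without EedcKO 2 or EedcKO 3 (edgeR adjusted p = 0.0908 and 0.0935). Neither Celsr1 nor Clstn3 was called with embryo sex as a covariate or the replicate number as a block, where 0 genes passed. Among the EedcKO libraries Celsr1 was lowest in EedcKO 1, the female one.

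None of 9 genes of the WAVE complex, an actin regulator that some delta-2 protocadherins bind, passed (log2 fold change -0.21 for Wasf1 and 0.11 for Nckap1). Nor did any of 5 tested nectin and afadin genes, which form adhesions beside cadherins (Nectin3 0.42, Nectin1 -0.08). The same held for 6 tested transcription factors known to repress cadherins in epithelial-mesenchymal transition (Zeb2 0.49, Twist2 -2.32). Twist2 had 55 counts in the library labelled WT2, 0 in WT1 and 13, 2 and 1 in EedcKO, and Snai1, Snai2 and Twist1 also had their highest counts in that library (33, 28 and 123). Zeb1 and Zeb2, the most abundant of the list, had their lowest counts there (754 and 799). The list summed to 364 CPM in that library, 464 in WT1 and 456 to 496 in EedcKO. The median log2 fold changes of these lists were -0.03, -0.04 and -0.39, and those of the catenin and superfamily lists -0.02 and -0.01, beside 0.0074 for all genes tested.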

How the data were processed

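The submitters' processing notes name the build mm10 and the aligner HISAT2 2.2.0. The authors deposited whole-number counts per gene, not normalized, and a table of TPM in which each column has the same sum. For the counting tool, its use of strand and the annotation, nothing is given in the sources used here. Of 56196 rows with counts, 28277 carried no symbol (2.01% to 2.16% of the counts) and were left out. The tables held 0 columns outside the series. Where several rows carried 1 symbol, the row holding 99% or more of the counts kept it.

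Samples were grouped by their titles. Counts were fitted in R 4.3.3 with edgeR 4.0.16 (filterByExpr, TMM, glmQLFit with robust estimation, glmQLFTest on the group), adjusted over the 13989 genes tested. All tested members are named; of partner lists, genes past the threshold or the 2 with the smallest p. The fit was also run on simulated counts, with results not given here. The simulation held no sex difference and no library at odds with its label, so it does not bear on these calls. Standard errors are the log2 fold change over the square root of F. Counting intervals are 95% exact Poisson or binomial and cover counting error only. For a count of 0 the limit was set at 3 counts, or 0.610 to 0.632 CPM, and not at the end of the exact interval. 1 listed forebrain marker is not reported here. Coordinates come from GENCODE M21, promoters from RefSeq. The members and lists were chosen with earlier results of these data known. Alternatives were other normalizations, filters and tests (DESeq2 1.42.0, limma 3.58.1 with voom or on log2 of TPM), sex as covariate, a block on the replicate number, and each library left out.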

Additional observations from a re-analysis of the deposited data

How the results depend on the processing

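The 2 called members, Cdh22 and Pcdh1, were also those called with RLE size factors, limma-voom, robust estimation off, a filter at 1 CPM in 2 libraries and without EedcKO 1. Pcdh8 joined them with library size alone and with no count filter, and Cdh1 with DESeq2. Members called numbered 1 on log2(TPM + 1) and on log2(TPM + 0.1), and 0 on log2(TPM + 1) with no filter, where 9 members had an unadjusted limma p under 0.05. All genes called numbered 203, 152 and 42 in these fits, and 675 with library size alone, against 448. With embryo sex as a covariate edgeR called 0 members and 0 genes (5 and 1611 at an unadjusted p under 0.05). Leaving out 1 library gave 0 to 6 members and 0 to 1012 genes. Without EedcKO 2, 0 members and 84 genes were called (7 members at an unadjusted p under 0.05 in edgeR), and without EedcKO 3, 0 members and 0 genes (7.0 and 1887). With the replicate number as a block, edgeR called 0 members and 0 genes (8 and 2169 at an unadjusted p under 0.05), with log2 fold changes of -0.77 for Cdh22 (edgeR adjusted p = 0.0922) and -0.94 for Pcdh1 (edgeR adjusted p = 0.0615). Same-numbered libraries had deviations from their group means correlated at -0.04 and 0.13. With 2 wild-type libraries the wild-type deviations mirror each other, so these values cannot decide whether the numbers pair the samples.

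Signs also changed, for the most part in members near 0 but also in Cdh3, Cdh12, Cdh13, Cdh23, Twist2 and Eed, which had larger values. Cdh24 was at 0.0166 with limma-voom, at 0.0245 on log2(TPM + 1) with and without a filter, and at 0.0248 on log2(TPM + 0.1). Sex as a covariate put Cdh20 at 0.27 and Cdh13 at -0.20, and the block put Cdh5 at -0.0769. With 1 library left out, the log2 fold change ranged from -0.0694 to 0.18 for Cdh2, -3.07 to 0.79 for Cdh3, -0.0777 to 0.19 for Cdh10, -0.0566 to 0.21 for Cdh11, -0.24 to 2.55 for Cdh12, -0.34 to 0.15 for Cdh20, -0.23 to 0.25 for Cdh24, -0.15 to 0.26 for Cdh5 and -0.52 to 0.40 for Cdh8. It ranged from -0.73 to 0.26 for Cdh23, -0.19 to 0.45 for Pcdh7, -0.24 to 0.39 for Pcdh10, -0.38 to 0.30 for Pcdh12, -3.33 to 5.45 for Twist2 and -0.75 to 0.0432 for Eed. The cause was not tested. Depth limits the low-count members. Of those tested, Cdh1, Cdh3, Cdh12, Cdh15, Cdh18, Cdh20, Cdh23, Pcdh15 and Pcdh20 had at most 66 counts in a library.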
